A study of Mus musculus with 14 samples.

Results

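Genes that interferons switch on were compared across 14 mouse thymic lymphomas, tumours used as a model of T-cell acute lymphoblastic leukaemia. A list of 41 interferon-stimulated genes was taken by symbol, and 37 of them were measured by 367 probe sets annotated to that gene alone, out of 15803 genes in all. Usp18, Isg15 and Xaf1 had no such probe set, the 2 of Oas1a were shared with Oas1g, and these 4 genes were not analysed here. The values are log2 levels of exon arrays, averaged over the probe sets of a gene, and a difference of 1 on this scale is a 2-fold change.

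There were 7 tumours of the strain labelled Vav-SB and 7 of the strain labelled CD4-SB, all from snap-frozen thymic lymphomas. In both, SB stands for the Sleeping Beauty transposon, which mutates genes by inserting into them, so both groups carry the mutagen and neither is an untreated control. By their names the strains refer to Vav, a gene active throughout the blood lineages, and to CD4, a surface protein that appears as thymocytes mature; the labels give no driver alleles, ages or treatment. The CD4-SB tumours carry 4 title numbers, because replicates 1 and 2 share one and replicates 5, 6 and 7 share another, whereas the Vav-SB tumours carry 7. T-cell genes of the labelled tissue were high in both: Cd3d averaged 11.84 in CD4-SB and 12.12 in Vav-SB tumours. These are whole tumours, so fewer cells of a type and less RNA per cell cannot be told apart.

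Interferons signal through cell-surface receptors and Jak kinases to STAT proteins. Type I interferons lead to a complex, with STAT2 and IRF9 among its parts, that binds interferon-stimulated response elements, while interferon-gamma acts mainly at gamma-activated sites. The induced genes include sensors of foreign nucleic acid, proteins that block viral replication, GTPases that attack intracellular microbes, and feedback inhibitors. In the thymus, interferon responses are found in developing thymocytes and in the antigen-presenting cells around them.

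Promoters of the genes were read from RefSeq (GRCm38.p6) from 250 bases before to 50 after the start, and 29 of the 37 genes were found there. The core of the interferon-stimulated response element, searched as GAAA, any 2 bases and GAAA on both strands, lay in 15 of the 29 (51.7%), against 3.86% of the 12606 genes on the array with a promoter in the table and 3.99% of all 27025 genes there. The core of the gamma-activated site, searched as TTCNNNGAA, which reads the same on both strands, lay in 8 (27.6%), against 8.93% and 9.55%. The 160 bases before the start are shown for 8 genes, chosen after the matches were seen: the 2 called genes with a response element and 6 further genes of different roles, with motifs in capitals. Samhd1, also called, holds a gamma-activated site core farther before its start than the stretch shown. Matches can overlap one another, as in Irgm1, Bst2 and Socs1, and a match is a description of letters, not a proven binding site. Irgm1 lies at chr11:48871421-48871580 on the minus strand, Bst2 at chr8:71537473-71537632 on the minus strand, Ifit1 at chr19:34640729-34640888 on the plus strand and Ifit3 at chr19:34583369-34583528 on the plus strand. Gbp2 lies at chr3:142620503-142620662 on the plus strand, Igtp at chr11:58199396-58199555 on the plus strand, Socs1 at chr16:10785537-10785696 on the minus strand and Irf1 at chr11:53769854-53770013 on the plus strand.
Irgm1: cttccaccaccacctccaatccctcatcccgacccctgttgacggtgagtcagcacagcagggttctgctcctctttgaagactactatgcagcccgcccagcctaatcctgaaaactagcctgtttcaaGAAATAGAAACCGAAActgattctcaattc
Bst2: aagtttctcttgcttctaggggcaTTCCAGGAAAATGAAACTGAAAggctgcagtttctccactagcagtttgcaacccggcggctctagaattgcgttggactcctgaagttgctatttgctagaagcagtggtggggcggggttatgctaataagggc
Ifit1: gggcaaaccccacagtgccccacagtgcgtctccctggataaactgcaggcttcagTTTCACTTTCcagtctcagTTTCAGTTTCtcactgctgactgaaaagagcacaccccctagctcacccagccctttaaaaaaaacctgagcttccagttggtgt
Ifit3: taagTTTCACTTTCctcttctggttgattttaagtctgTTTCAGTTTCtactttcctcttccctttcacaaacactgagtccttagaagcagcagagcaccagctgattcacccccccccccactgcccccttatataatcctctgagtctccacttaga
Gbp2: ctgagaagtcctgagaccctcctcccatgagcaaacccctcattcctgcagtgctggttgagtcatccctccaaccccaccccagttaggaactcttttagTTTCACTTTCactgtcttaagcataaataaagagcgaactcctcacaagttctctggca
Igtp: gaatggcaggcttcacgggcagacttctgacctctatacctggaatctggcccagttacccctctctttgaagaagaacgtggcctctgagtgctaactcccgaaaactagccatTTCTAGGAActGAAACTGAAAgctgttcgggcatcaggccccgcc
Socs1: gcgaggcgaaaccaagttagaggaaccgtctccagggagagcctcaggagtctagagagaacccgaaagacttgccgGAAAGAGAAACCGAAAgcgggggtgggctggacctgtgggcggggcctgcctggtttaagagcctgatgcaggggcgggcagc
Irf1: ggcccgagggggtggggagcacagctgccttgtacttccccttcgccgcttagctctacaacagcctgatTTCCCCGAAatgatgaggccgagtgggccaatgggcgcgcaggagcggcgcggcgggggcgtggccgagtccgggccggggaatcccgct

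In Irgm1 and Socs1 the response element is a run of repeats that gives 2 overlapping matches, the nearer starting 24 bases before the start in Irgm1 and 77 in Socs1. Ifit1 and Ifit3 each hold 2 separate copies on the other strand, and Gbp2 holds 1. Bst2 and Igtp hold both motifs close together, and in Bst2 the letters of the 2 motifs overlap. Irf1 shows the gamma-activated site core alone, 90 bases before its start. The median difference between the models, Vav-SB minus CD4-SB, was -0.56 over the 15 genes with the response element core. It was -0.46 over the 14 without the response element core and -0.44 over the 8 not in the table. Each of these sets held 2 genes that passed the test.

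Most of the 37 genes were high, or low, in the same tumours, and the CD4-SB tumours held both the highest and some of the lowest levels. CD4-SB replicate 3 had the highest mean over the genes, 9.04, and stood above the 14-tumour median for 36 of 37, although only 41.8% of all genes did. CD4-SB replicates 1, 6 and 5 followed at 8.54, 8.41 and 8.26, with 33, 32 and 30 genes above their medians. CD4-SB replicates 2, 4 and 7 were low, at 7.37, 7.59 and 7.39, with 12, 14 and 10 genes above. The means of these 3 lay within the span of the Vav-SB tumours, though single genes did not always. In replicates 2, 4 and 7, 10, 7 and 9 of the genes lay below every Vav-SB tumour, against 17.3%, 18.8% and 16.3% of all genes. Above every Vav-SB tumour lay 6, 7 and 0, against 24.9%, 25.4% and 19.4%.

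Among Vav-SB tumours the mean ran from 7.19 in replicate 2 to 7.98 in replicate 7, with a median of 7.43. Replicate 7 had 30 genes above their medians and replicate 3 had 22, while replicates 1, 2, 4 and 5 had 6, 2, 7 and 8. Replicate 6 lay between, with 17. Over the models the mean was 8.09 ± 0.64 (SD, n = 7) in CD4-SB and 7.54 ± 0.29 (SD, n = 7) in Vav-SB tumours.

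**Figure D1:**
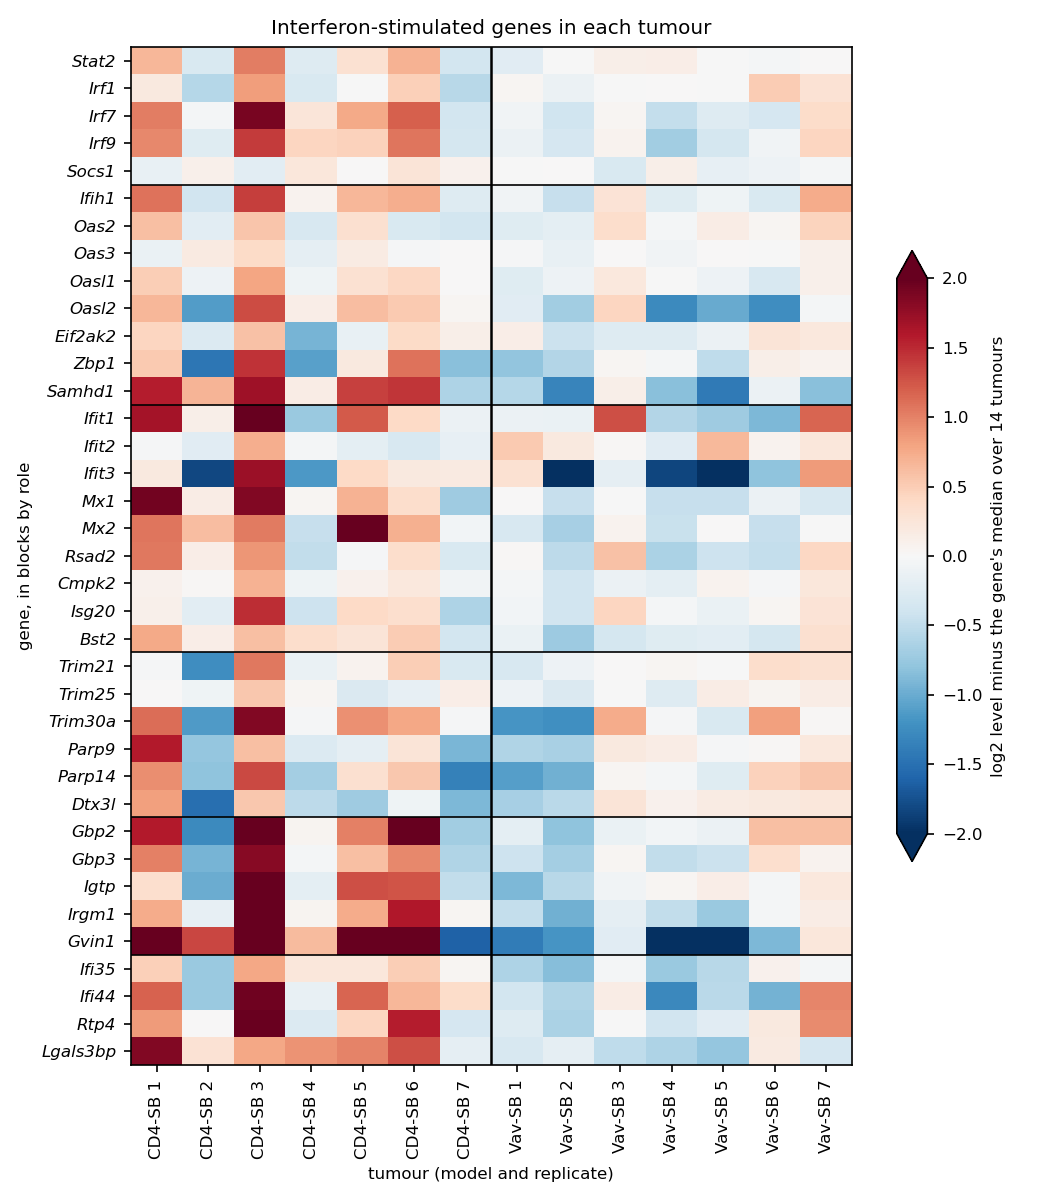
Each row is 1 of the 37 genes, grouped by role, and each column is 1 tumour; colour is the log2 level minus the gene's median over the 14 tumours, with the colour scale ending at -2 and 2. CD4-SB replicates 1, 3, 5 and 6 are high for most genes. CD4-SB replicates 2, 4 and 7 are lower, with means over the 37 genes within the span of the Vav-SB tumours.

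Tumours that share a title number did not always share their level. CD4-SB replicates 1 and 2, of one number, stood at 8.54 and 7.37, and replicate 7 stood at 7.39 beside 8.26 and 8.41 for replicates 5 and 6 of its own number. CD4-SB replicate 3 was the highest of the 14 tumours for 28 of the 37 genes, against 8.99% of all genes. CD4-SB replicate 1 was highest for 7, against 10.4% of all genes. Those 7 were Oas2, Mx1, Rsad2, Bst2, Parp9, Dtx3l and Lgals3bp. Mx2 peaked in replicate 5 and Socs1 in replicate 6, so every highest value was in a CD4-SB tumour, against 61.1% over all genes.

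The spread within a model was wider in CD4-SB. The SD was larger there for 36 of 37 genes, all but Ifit3, against 73.5% of all genes. Over CD4-SB tumours the genes had a median SD of 0.75 and over Vav-SB tumours 0.37, and 0.26 and 0.19 over all genes. The median ratio of the 2 SDs was 1.83 over these genes and 1.37 over all genes, and neither was tested. Zbp1, Ifit1, Ifit3, Gbp2, Igtp and Gvin1 had an SD over 1 in CD4-SB tumours, and Ifit3 alone in Vav-SB. Gbp2, a guanylate-binding GTPase, ran from 5.81 to 9.72 in CD4-SB tumours around a median of 8.09, and from 6.28 to 7.68 around 6.96 in Vav-SB. Its lowest and highest values were both in CD4-SB tumours, replicates 2 and 3.

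**Figure D2:**
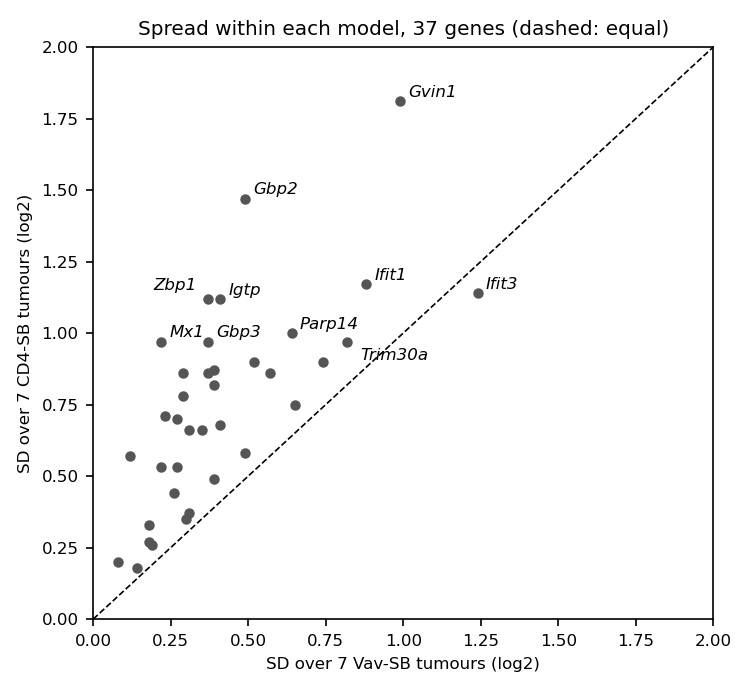
Each point is 1 gene, with its SD over 7 Vav-SB tumours on the horizontal axis and over 7 CD4-SB tumours on the vertical axis, both in log2 units; the dashed line marks equal SDs. The points lie above the line apart from Ifit3, and Gvin1 lies highest at 1.81.

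Between the models, 6 of 37 genes were higher in CD4-SB tumours at an adjusted p under 0.05 (limma, Benjamini-Hochberg over 15803 genes) and 0 were higher in Vav-SB. Over all genes tested, 7.18% were called higher in CD4-SB and 7.28% higher in Vav-SB. At an unadjusted p under 0.05 (limma) there were 13 of the 37 genes, and each was higher in CD4-SB. Over all 15803 genes there were 4396, in either direction. The median difference, Vav-SB minus CD4-SB, was -0.56 over the 37 genes and 0.0 over all genes. The mean level was lower in Vav-SB for 32 genes, 86.5% against 49.3% of all genes, and higher for Irf1, Oas2, Ifit2, Trim21 and Dtx3l. No gene separated the models without overlap, which 4.04% of all genes did. Of the 367 probe sets, 321 differed in the direction of their gene.

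**Figure D3:**
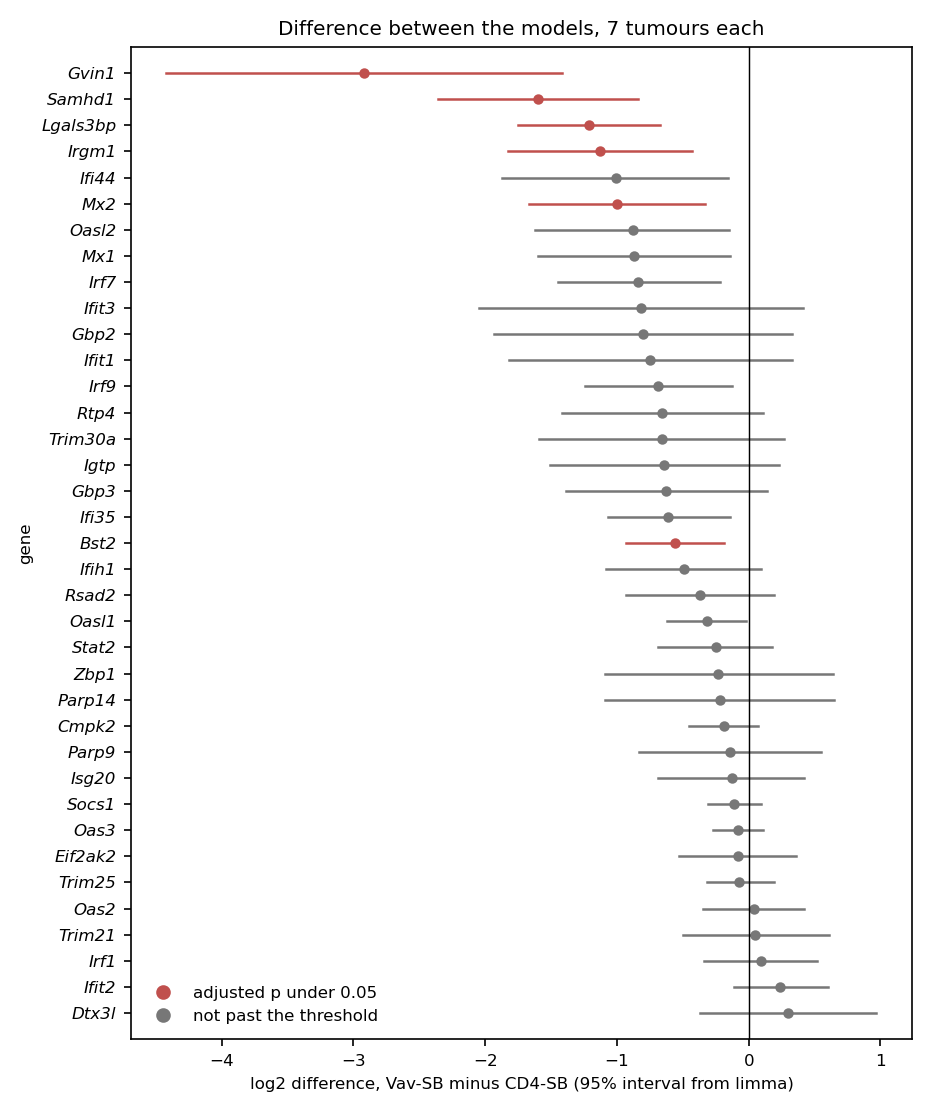
Each row is 1 gene, the point is its log2 difference Vav-SB minus CD4-SB over 7 tumours each, and the line is limma's 95% interval; red marks an adjusted p under 0.05. The red genes run from Gvin1 at -2.92 to Bst2 at -0.56, and Dtx3l lies farthest to the right at 0.30.

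Of the 5 transcription factors and feedback genes, 0 passed the test (2 at an unadjusted p under 0.05, limma), with a median difference of -0.25. Of all genes, 7.18% were called higher in CD4-SB, with a median difference of 0.0. At an unadjusted p under 0.05 (limma), 4396 of all 15803 genes passed, in either direction. The roles hold few genes, so small counts say little about a role. Irf7, the factor that amplifies interferon-alpha production, ran from 6.92 to 9.2 around a median of 8.05 in CD4-SB tumours and from 6.82 to 7.66 around 7.04 in Vav-SB. Its difference was -0.84 (95% interval -1.45 to -0.22, limma adjusted p = 0.068), and 4 CD4-SB tumours lay above every Vav-SB tumour. Irf9, the DNA-binding part of the type I complex, ran from 7.2 to 8.96 around 8.01 in CD4-SB and from 6.86 to 7.98 around 7.43 in Vav-SB, with a difference of -0.69 (limma adjusted p = 0.0947). Here too the high CD4-SB tumours were replicates 1, 3, 5 and 6, and the others overlapped Vav-SB.

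Stat2, another part of that complex, lay within 7.69 to 8.05 in Vav-SB, around a median of 7.91, and ran from 7.55 to 8.95 around 8.22 in CD4-SB. CD4-SB tumours lay on both sides of the narrow Vav-SB range, and the difference of -0.25 did not pass (limma adjusted p = 0.476). Irf1, a factor induced mainly through gamma-activated sites, ran from 7.6 to 9.0 around 8.16 in CD4-SB and from 8.05 to 8.68 around 8.18 in Vav-SB. The models overlapped fully for Irf1, with a difference of 0.09 (95% interval -0.34 to 0.52). Socs1, an inhibitor of Jak kinases, had the narrow ranges 7.57 to 8.04 in CD4-SB and 7.48 to 7.90 in Vav-SB, and its lowest CD4-SB value was in replicate 3, where most other genes peaked.

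Of the 8 RNA and DNA sensors and enzymes, 1 passed, against 7.18% of all genes called higher in CD4-SB, with a median of -0.27. Samhd1, an enzyme that breaks down the building blocks of DNA, ran from 8.26 to 10.57 around a median of 10.24 in CD4-SB tumours and from 7.46 to 8.99 around 8.04 in Vav-SB. All CD4-SB tumours but replicate 7 lay above the highest Vav-SB tumour. The difference was 3.04-fold higher in CD4-SB (log2 -1.60, SE 0.36, limma adjusted p = 0.00832). Oas2, which makes the second messenger that activates RNase L, ran from 6.48 to 7.45 around 6.64 in CD4-SB and from 6.62 to 7.30 around 6.90 in Vav-SB. It showed full overlap (difference 0.04, 95% interval -0.35 to 0.42), and 10 of its 20 probe sets ran each way. Values of -0.88 for Oasl2, -0.49 for Ifih1 (an RNA helicase sensor), -0.32 for Oasl1, -0.23 for Zbp1 (a sensor of Z-form nucleic acid), -0.08 for Eif2ak2 (the kinase PKR) and -0.08 for Oas3 did not pass.

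Of the 9 antiviral effectors, 2 passed, against 7.18% of all genes called higher in CD4-SB, with a median of -0.56. Mx2, a dynamin-like antiviral GTPase, ran from 5.19 to 7.86 around 6.36 in CD4-SB and from 4.98 to 5.72 around 5.32 in Vav-SB. It was 2.00-fold higher in CD4-SB (log2 -1.0, SE 0.31, limma adjusted p = 0.0454), with 5 CD4-SB tumours above every Vav-SB tumour. Bst2, or tetherin, which holds budding virus at the cell surface, ran from 8.71 to 9.85 around 9.44 in CD4-SB and from 8.36 to 9.40 around 8.85 in Vav-SB. It was 1.48-fold higher in CD4-SB (log2 -0.56, SE 0.17, limma adjusted p = 0.0419), and Vav-SB replicate 7, the highest of its model, lay above CD4-SB replicates 2, 5 and 7.

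Mx1, the relative of Mx2, ran from 5.16 to 7.81 around 6.23 in CD4-SB and from 5.42 to 5.88 around 5.55 in Vav-SB. Its CD4-SB tumours lay above every Vav-SB tumour in 6 of 7, but replicate 7 was the lowest of all 14, and the difference of -0.87 did not pass (limma adjusted p = 0.107). Ifit1, which binds foreign RNA and was measured by 1 probe set, ran from 5.19 to 8.60 around 6.34 in CD4-SB and from 5.04 to 7.23 around 5.80 in Vav-SB. The models overlapped widely and the difference was -0.75 (95% interval -1.82 to 0.33). Ifit3, also on 1 probe set, differed by -0.82 (95% interval -2.05 to 0.41), Rsad2 (viperin) by -0.37, Cmpk2 (a nucleotide kinase) by -0.19, Isg20 (an exonuclease) by -0.13 and Ifit2 by 0.24, and these did not pass.

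**Figure D4:**
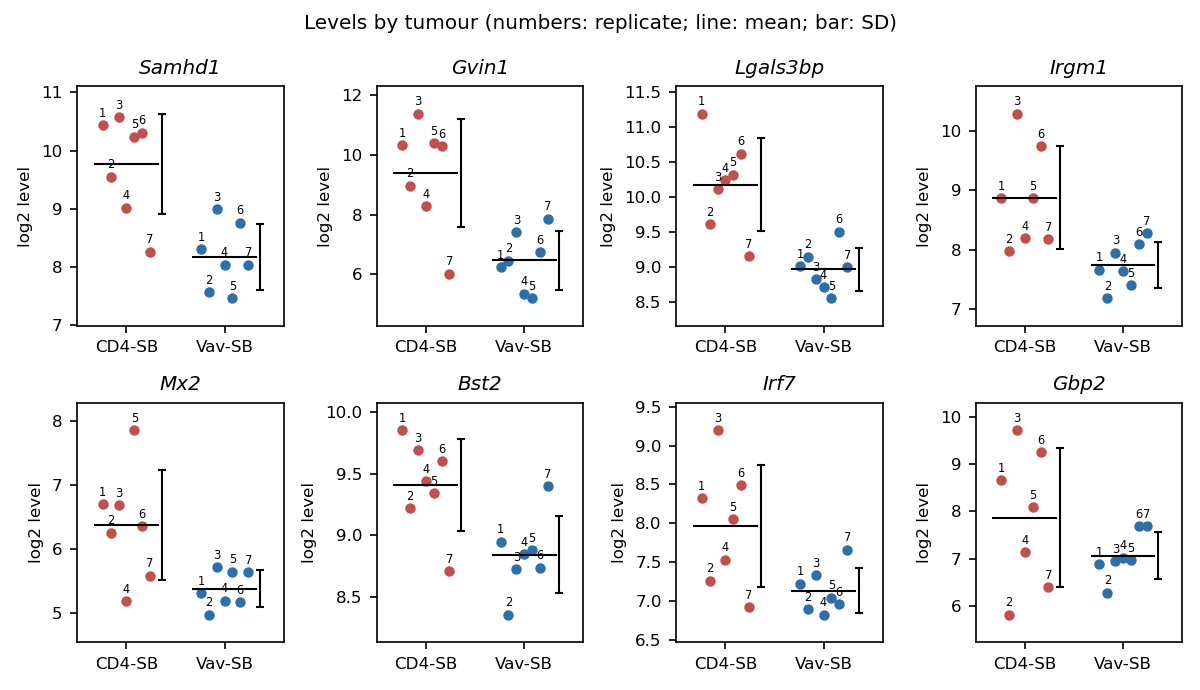
Log2 level of the 6 genes that passed the test, of Irf7 and of Gbp2 in each tumour, 1 panel per gene with its own axis; points are tumours numbered by replicate, lines are means and bars are ± 1 SD of 7 tumours. CD4-SB replicate 7 lies among the Vav-SB tumours in all 8 panels.

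Of the 6 genes of the ISG15, TRIM and PARP group, 0 passed and 0 had an unadjusted p under 0.05 (limma), with a median of -0.10. Of all 15803 genes, 7.18% were called higher in CD4-SB, and 4396 had an unadjusted p under 0.05 (limma) in either direction. Trim30a differed by -0.66, Parp14 (an ADP-ribosyltransferase) by -0.22, Parp9 by -0.14 and its partner Dtx3l, a ubiquitin ligase, by 0.30. Trim25 and Trim21, both ubiquitin ligases, differed by -0.07 and 0.05. Dtx3l ran from 8.2 to 9.12 in Vav-SB and from 7.36 to 9.69 in CD4-SB, so the Vav-SB tumours lay inside the CD4-SB range.

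Of the 5 interferon-inducible GTPases, 2 passed, against 7.18% of all genes called higher in CD4-SB, with a median of -0.80. Gvin1, a very large GTPase measured by 2 probe sets, ran from 6.02 to 11.39 around 10.31 in CD4-SB and from 5.20 to 7.87 around 6.46 in Vav-SB. It was 7.57-fold higher in CD4-SB (log2 -2.92, SE 0.70, limma adjusted p = 0.0128), with CD4-SB replicate 7 the only one inside the Vav-SB range. Irgm1, which acts on vacuoles that hold microbes, ran from 7.97 to 10.29 around 8.87 in CD4-SB and from 7.18 to 8.28 around 7.66 in Vav-SB. It was 2.19-fold higher in CD4-SB (log2 -1.13, SE 0.33, limma adjusted p = 0.0316), and CD4-SB replicates 2, 4 and 7 overlapped Vav-SB. Gbp2, Igtp and Gbp3 differed by -0.80, -0.64 and -0.63 and did not pass.

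Of the 4 other induced genes, 1 passed, against 7.18% of all genes called higher in CD4-SB, with a median of -0.83. Lgals3bp, a secreted protein that binds galectin-3, ran from 9.16 to 11.19 around 10.24 in CD4-SB and from 8.56 to 9.51 around 9.0 in Vav-SB, with 6 CD4-SB tumours above every Vav-SB tumour. It was 2.31-fold higher in CD4-SB (log2 -1.21, SE 0.25, limma adjusted p = 0.00597). Ifi44 differed by -1.01, Rtp4 by -0.66 and Ifi35 by -0.61, and these did not pass.

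Leaving out single tumours moved the calls, both of these genes and of all genes. Over all genes, 1628 to 2518 were called in either direction, against 2284 with all 14 tumours. With each tumour left out in turn, 3 to 10 of the genes passed in the limma fit. There were 10 without CD4-SB replicate 2, and 3 without CD4-SB replicate 1, 5 or 6 or Vav-SB replicate 1, 2, 4 or 5. Samhd1, Gvin1 and Lgals3bp passed in all 14 fits, with adjusted p up to 0.0213, 0.0313 and 0.016. Irgm1 was lost without CD4-SB replicates 1, 5 and 6 and without Vav-SB replicates 1, 2, 4 and 5 (adjusted p up to 0.0684). Mx2 stayed only without CD4-SB replicate 4 or 7 or Vav-SB replicate 3 (limma adjusted p up to 0.0912 in the others). Bst2 stayed only without CD4-SB replicate 2 or 7 or Vav-SB replicate 7 (limma adjusted p up to 0.0876 in the others). Irgm1 was also lost with the median over probe sets (limma adjusted p = 0.0637), Bst2 with array weights (0.0525) and, with Y-linked genes as a covariate, Bst2 (0.0612) and Mx2 (0.0709). Array weights also added Irf7 (limma adjusted p = 0.0327), Mx1 (0.0495) and Ifi35 (0.0427), and a test of genes at or above the median level alone added Irf7 (0.0488). Irf7 and Irf9 passed without CD4-SB replicate 2 and without replicate 7, Oasl2 without CD4-SB replicate 2 and Vav-SB replicate 3, Ifi44 without CD4-SB replicate 2 and Vav-SB replicate 7, Ifi35 without CD4-SB replicate 2 and Mx1 without CD4-SB replicate 7.

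With 1 tumour per title number, which keeps CD4-SB replicates 1, 3, 4 and 5, 11 genes were higher in CD4-SB, against 7.21% of all genes. Irf7, Irf9, Oasl2, Mx1, Gbp3 and Ifi35 passed there, and Mx2 did not (limma adjusted p = 0.0501). That set leaves out CD4-SB replicates 2 and 7, which were low for these genes, and replicate 6, which was high.

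Markers of other cells were, on average over 6 lists, higher in CD4-SB as well, though not in every list. Over 6 marker lists (myeloid, dendritic, plasmacytoid dendritic, B, neutrophil, and stromal and endothelial), the mean level was 8.30 ± 0.39 (SD, n = 7) in CD4-SB and 7.74 ± 0.23 in Vav-SB, a difference of -0.56 (exact permutation test, two-sided, p = 0.00991). It ran from 7.74 to 8.71 in CD4-SB and from 7.45 to 8.12 in Vav-SB. Of 56 markers measured, the limma fit called 14 in favour of CD4-SB and 2 in favour of Vav-SB, against 7.18% and 7.28% of all genes. The 14 include 7 of 13 myeloid markers, 3 of 11 stromal and endothelial, 2 of 10 dendritic, Irf8 and Igkc; the 2 higher in Vav-SB were Ccr9 and Pecam1. Taken alone, the mean of the plasmacytoid dendritic markers was higher in Vav-SB (difference 0.36, exact permutation p = 0.0321). Of the 7 measured, Ccr9 (2.34), Cox6a2 (1.33) and Tcf4 (0.35) were higher in Vav-SB, and 4 had lower means there. Those 4 were Irf8 (-0.73), Klk1 (-0.48), Siglech (-0.24) and Runx2 (-0.03). Whether plasmacytoid dendritic cells or the tumour cells expressed Ccr9 and Cox6a2 was not tested. Neutrophil markers differed by -0.07 (exact permutation p = 0.863). No marker is at 0 on this log2 scale. Siglech, from the plasmacytoid dendritic list, averaged 6.91 in CD4-SB and 6.66 in Vav-SB, below the 7.22 median of all genes. The mean of 9 T-cell genes stood at 9.99 ± 0.32 (SD, n = 7) in CD4-SB tumours and at 10.41 ± 0.14 in Vav-SB tumours.

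Tumour by tumour, the marker level was 8.71, 8.62, 8.58 and 8.38 in CD4-SB replicates 1, 3, 5 and 6, which were high for the interferon-stimulated genes, and 7.74 and 7.83 in replicates 2 and 7, which were low. CD4-SB replicate 4 had markers at 8.25 and these genes at 7.59. Vav-SB replicate 7 had markers at 7.65 and these genes at 7.98, the highest of its model. With the marker level as a covariate 0 of the 37 genes passed the limma test, against 3.83% of all genes in either direction. At an unadjusted p under 0.05 (limma) there were 5, 3 in favour of Vav-SB and 2 in favour of CD4-SB. The share of all genes at that threshold was not counted for this fit. The median difference became 0.20, 24 genes had a positive difference, and 19 turned sign. Samhd1 went to -0.56, Lgals3bp to -0.57, Gvin1 to -1.07, Irgm1 to -0.37, Mx2 to -0.40 and Bst2 to -0.24. Of the markers, 7 were set aside as interferon-inducible, and some of those kept may respond to interferon too. Without the 7 the count was also 0 and the median 0.18. With stromal and endothelial markers alone the count was 0 and the median -0.20. In that fit Samhd1 stood at -1.32, Lgals3bp at -1.04, Gvin1 at -2.72, Irgm1 at -0.96, Mx2 at -1.01 and Bst2 at -0.47. Over all genes, 2284 were called without a covariate and 606, 642 and 615 with these 3 covariates. The marker level itself differed between the models, so these fits cannot tell marker level and model apart. The part of these cells in the differences was not tested.

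**Figure D5:**
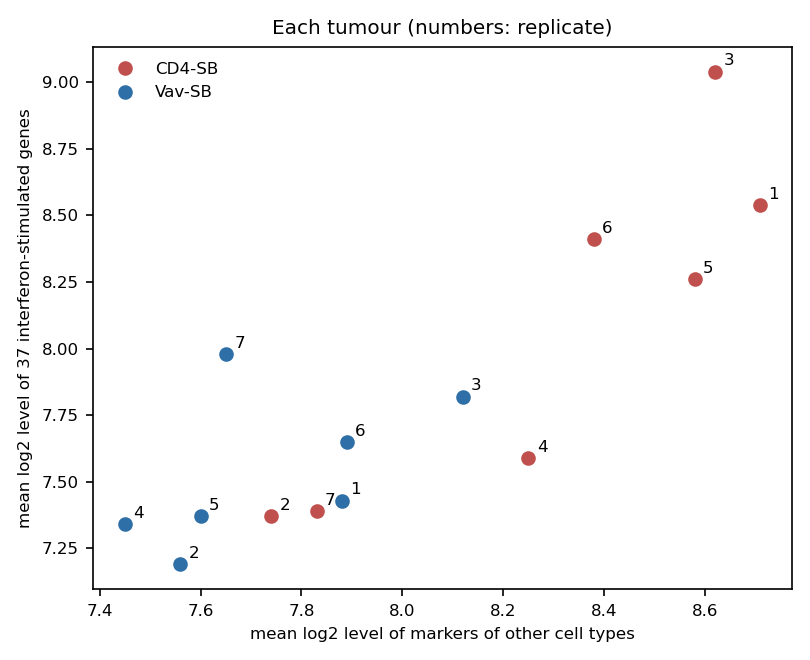
Each point is 1 tumour, numbered by replicate, with the mean log2 level of 56 markers of other cell types on the horizontal axis and the mean log2 level of the 37 genes on the vertical axis. CD4-SB replicates 1, 3, 5 and 6 lie at the upper right, and CD4-SB replicate 4 and Vav-SB replicate 7 lie apart from the others.

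Other genes of the pathway were taken from 5 lists of 130 genes, of which 102 were measured. The test called 13 higher in CD4-SB and 3 higher in Vav-SB, against 7.18% and 7.28% of all genes. The median difference was -0.24 over the 102 genes and 0.0 over all genes. Of 9 interferon genes 0 passed (1 at an unadjusted p under 0.05, limma). Ifnb1 averaged 5.75 in CD4-SB and 5.78 in Vav-SB, and Ifng 7.10 and 6.81; their means lay below the median of all genes, 7.22. Ifna2, of a family of near-identical genes whose values are uncertain, averaged 7.48 in CD4-SB and 7.02 in Vav-SB (difference -0.47, limma adjusted p = 0.171). It passed as higher in CD4-SB without CD4-SB replicate 1 (-0.62, limma adjusted p = 0.044) and with each of the 3 marker covariates (-1.06 with all markers, limma adjusted p = 0.0123). It is named because of those calls.

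Of 6 receptor genes 1 passed: Il10rb, a chain of the interferon-lambda receptor, was 1.54-fold higher in CD4-SB (log2 -0.62, limma adjusted p = 0.024). That call was lost without Vav-SB replicate 1 or 4 (limma adjusted p up to 0.0503). Ifnar1 differed by 0.24 and Ifnar2 by -0.29, the 2 chains of the type I receptor, and Ifngr1 by -0.03 and Ifngr2 by -0.13, the chains of the interferon-gamma receptor; none of these 4 passed. With the marker covariate Ifnar1 was higher in Vav-SB, by 0.60 (limma adjusted p = 0.0116). Of 12 signalling and inhibitor genes 0 passed (1 at an unadjusted p under 0.05, limma).

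Of 19 genes listed as sensors and adaptors, 5 were higher in CD4-SB and 1 in Vav-SB, against 7.18% and 7.28% of all genes. Aim2, a sensor of cytosolic DNA, was 3.56-fold higher in CD4-SB (log2 -1.83, limma adjusted p = 0.00321), at 8.60 to 10.14 against 6.68 to 8.79. The endotoxin receptor Tlr4 was 1.86-fold higher in CD4-SB and the adaptor Ticam1 1.37-fold. The other 2 of the 5 were the RNA receptors Tlr3, 2.16-fold higher, and Tlr7, 1.74-fold higher, named here because they complete the count. Traf6, a ubiquitin ligase downstream of Toll-like receptors, was 1.29-fold higher in Vav-SB (log2 0.37, limma adjusted p = 0.00856). For Traf6 the models did not overlap, at 8.86 to 9.24 in Vav-SB against 8.42 to 8.75 in CD4-SB. The same held for 4.04% of all genes, in either direction. Irf3, a factor that turns on interferon-beta, differed by 0.14 and did not pass.

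Of 56 further interferon-stimulated genes, 7 were higher in CD4-SB and 2 in Vav-SB, against 7.18% and 7.28% of all genes. Ifi30, a thiol reductase of antigen-presenting cells, was 2.52-fold higher in CD4-SB (log2 -1.33, limma adjusted p = 0.00144), and Trim14, 1.41-fold (log2 -0.49, limma adjusted p = 0.00123). Both separated the models without overlap, which 4.04% of all genes did in either direction. Ifi30 lay at 9.89 to 11.18 in CD4-SB against 8.74 to 9.80 in Vav-SB. Shisa5 was 1.77-fold higher in CD4-SB. Parp11, an ADP-ribosyltransferase, went the other way: it was 1.93-fold higher in Vav-SB (log2 0.95, limma adjusted p = 0.000473), at 8.62 to 9.15 against 7.32 to 8.39. Lgals9, the galectin-9 gene, was the other 1 higher in Vav-SB (1.93-fold), named to complete the count.

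With the marker level as a covariate, 1 of all 102 pathway genes was higher in CD4-SB (Ifna2) in the limma fit. That fit called 3 higher in Vav-SB (Ifnar1, Gbp8 and Parp11), and 3.83% of all genes in either direction. Gbp8, a guanylate-binding GTPase, differed there by 2.53 (limma adjusted p = 0.025) and is named to complete the count. Parp11 still passed, at 1.16 (limma adjusted p = 0.00232), as it did with each of the other marker covariates. Il10rb, Aim2, Ticam1, Tlr4, Traf6, Ifi30, Trim14 and Shisa5 did not, with differences of -0.17, -1.39, -0.47, -0.29, 0.33, -0.94, -0.35 and -0.50 in that order. The count of pathway genes higher in CD4-SB was 21 without CD4-SB replicate 2, 20 without CD4-SB replicate 7 and 8 without Vav-SB replicate 4. Over all genes, those fits called 2300, 2518 and 1796 in either direction, in that order.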

How the data were processed

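RNA of 14 thymic lymphomas was measured on mouse exon arrays. The deposited values are log2 levels per probe set; the submitters' processing notes list RMA and Partek with no version, and the log base is read from the range of the values, 2.03 to 14.03. Medians of the columns run from 7.46 to 7.50, which hides any change in total RNA. Per the labels' protocols RNA was amplified from a small input, which adds spread between arrays. Of 194293 probe sets, 179496 had 1 gene symbol; averaging the probe sets of each gene left 15803 genes, with no filter on dim ones. Symbols were updated through RefSeq names (GRCm38.p6), and Trim30a was found under an older symbol. The number of arrays limits the precision.

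Models came from the strain label, and replicates are numbered in accession order. The labels do not say that tumours came from separate animals, and p-values therefore reflect only the spread among these samples, which may be technical. Genes were tested with limma 3.58.1 (lmFit, eBayes) in R 4.3.3, Vav-SB minus CD4-SB, adjusted by Benjamini-Hochberg across the 15803 genes, at a threshold of 0.05. The marker level was compared by an exact permutation test over 3432 splits. On simulated data, 200 of 15803 genes were shifted. The fit recovered 56% of shifts of 0.5 (log2), 88% of 1, 98% of 2 and 100% of 4. It made 10 calls among unchanged genes. The 37 interferon-stimulated genes spread more widely than genes at large: median SDs 0.75 (CD4-SB) and 0.37 (Vav-SB), against 0.26 and 0.19. The recovered shares therefore do not give the recovery for those 37 genes.

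Members, pathway and marker lists were chosen with earlier results of these data known, and 2 symbols of the lists were updated to current ones later. Every measured member is named, with the range in each model for those past the threshold and for a set of others, to which Socs1 and Dtx3l were added after their values were seen; of each pathway list, up to 4 genes with the smallest adjusted p and a set of core genes, 1 of which is not reported here. Promoters are RefSeq's, oriented along the gene: the commonest place of TATAAA was 30 bases before the start on the plus strand and 29 on the minus strand. Alternatives covered the probe set summary, normalization, filters, weights, the prior, title numbers, marker and Y-linked covariates and single tumours; 2 marker covariates were added after the data were seen.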

Additional observations from a re-analysis of the deposited data

Results flagged for a closer look

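In 5 of 110 groups of 7 tumours tested, over 53 genes and 2 summaries, 1 tumour was separated from the other 6 by Dixon's test, and chance flags about 5% of groups. CD4-SB replicate 3 stood apart for Ifit2 at 8.51, with the next tumour at 7.76, and for Cmpk2 at 7.23, with the next at 6.75. Vav-SB replicate 3 stood apart for Il10rb at 8.32 (next 7.87), replicate 4 for Ticam1 at 7.61 (next 7.37) and replicate 6 for Traf6 at 9.24 (next 9.0). Each of the 5 was the highest of its group.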

How the results depend on the processing

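The count of interferon-stimulated genes higher in CD4-SB was 5, 6 or 8 under another probe set summary, normalization, filter on dim values, prior or array weights and with title number as a random block, and 0 were higher in Vav-SB in every fit. It was 11 with 1 tumour per title number and 4 with Y-linked genes as a covariate. It was 0 with each of the 3 marker covariates, and 3 to 10 with 1 tumour left out. Calls over all genes, in either direction, moved as well. They numbered 2284 in the fit reported above, 1766 with the median over probe sets, 2993 with array weights and 2769 with the random block. With Y-linked genes they numbered 1778, with the marker covariates 606, 642 and 615, and with 1 tumour left out 1628 to 2518. The correlation within title numbers was estimated at -0.162. The random block thus made no allowance for likeness between tumours that share one. The median difference was -0.65 to -0.37 with 1 tumour left out, and 0.20 with the marker covariate (0.18 without the 7 markers set aside as interferon-inducible). Pathway genes higher in CD4-SB numbered 21 with array weights, 24 with 1 tumour per title number, 1, 1 and 4 with the covariates (all markers, without inducible ones, stromal and endothelial), and 8 to 21 with 1 tumour left out; those higher in Vav-SB numbered 5 with array weights and 2 to 4 with 1 tumour left out. The marker level differed by 0.36 on plasmacytoid dendritic markers alone (exact permutation p = 0.0321), -0.07 on neutrophil markers alone (exact permutation p = 0.863), and -0.66 to -0.49 with 1 tumour left out. Differences that changed sign, Vav-SB minus CD4-SB, were as follows. With the marker covariate: Stat2 0.24, Irf9 0.05, Ifih1 0.25, Oasl2 0.07, Eif2ak2 0.20, Zbp1 0.78, Ifit1 0.39, Ifit3 0.43, Mx1 0.12, Rsad2 0.22, Isg20 0.47, Trim25 0.00, Trim30a 0.49, Parp9 0.66, Parp14 0.77, Gbp2 0.63, Gbp3 0.46, Igtp 0.26, Rtp4 0.06, Ifngr2 0.22 and Ifnb1 -0.11. Without inducible markers: Stat2 0.21, Ifih1 0.19, Oasl2 0.01, Eif2ak2 0.18, Zbp1 0.68, Ifit1 0.34, Ifit3 0.32, Mx1 0.07, Rsad2 0.18, Isg20 0.43, Trim30a 0.41, Parp9 0.61, Parp14 0.68, Gbp2 0.49, Gbp3 0.36, Igtp 0.19, Ifngr1 0.06, Ifngr2 0.21 and Ifnb1 -0.10. With stromal and endothelial markers: Zbp1 0.15, Rsad2 0.01, Isg20 0.02, Trim25 0.02, Trim30a 0.07, Parp9 0.47, Parp14 0.11, Ifngr2 0.06 and Ifnb1 -0.26. With 1 tumour per title number: Irf1 -0.08, Oas2 -0.21, Trim21 -0.20, Dtx3l -0.07 and Ifngr1 0.10. With Y-linked genes: Irf1 -0.02, Oas2 -0.01, Trim21 -0.09 and Ifngr1 0.00. With the median over probe sets, Irf1 -0.03, and with bright probe sets only, Oas2 -0.03. With 1 tumour left out, the ranges that crossed 0 were Irf1 -0.01 to 0.23, Oas2 -0.03 to 0.13, Eif2ak2 -0.24 to 0.01, Zbp1 -0.47 to 0.02, Isg20 -0.26 to 0.09, Trim21 -0.15 to 0.23, Trim25 -0.12 to 0.02, Parp9 -0.30 to 0.12, Ifngr1 -0.18 to 0.13 and Ifnb1 -0.03 to 0.11. The cause of these changes was not tested. Low array values lie near background, where differences are understated. No paired analysis was possible because the labels pair no tumour of one model with a tumour of the other, and the models share no title number.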
